A study of Danio rerio with 8 samples.

Results

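The sites described here are positions on the zebrafish (Danio rerio) chromosomes at which the clock repressors Her1 and Her7 gave peaks with nearly the same summit. A peak of the Her1 list was counted as a joint site when it lay on a numbered chromosome and its summit was at most 100 bp from the summit of a Her7 peak, and the nearest Her7 peak was taken as its partner. This gave 226 joint sites among the 1739 Her1 peaks of the 25 numbered chromosomes (13.0%, exact 95% binomial interval 11.5 to 14.7), out of 2061 Her1 peaks in all. Each had a partner of its own, so the joint sites also took 226 of the 4733 Her7 peaks of the chromosomes (4.77%, 4.18 to 5.42), out of 5591. The sites were chosen by the distance between their summits, so these shares and all distances between paired summits are descriptions.

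Her1 and Her7 are basic helix-loop-helix proteins of the Hes/Her family, which bind DNA as dimers and repress transcription. In the presomitic mesoderm of the zebrafish embryo they repress their own genes and each other's, and this delayed negative feedback is the core of the segmentation clock that times the formation of somites. CUT&Tag locates a protein on chromatin by tethering a transposase to an antibody, and the fragments it releases pile up into a peak whose highest point, the summit, lies near the tethered protein.

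The Her1 list came from Tg(her1:her1-YFP) embryos profiled with an anti-GFPpoly antibody, whose her1 transgene makes a Her1 protein joined to YFP, a yellow fluorescent protein. The Her7 list came from Tg(her1:nls-mkate2,her7:her7-YFP) embryos profiled with an anti-GFP antibody, whose her7 transgene makes Her7-YFP and whose her1 transgene drives the red reporter nls-mkate2. All embryos were whole, untreated and at the bud stage, with 120 of them pooled per replicate, so cells outside the presomitic mesoderm were included. The series has 8 samples, of which 2 carry the peak lists used here, and the other 6 (a second antibody or replicate, H2AZ and a negative control in each line) were not analysed here. The Her1 line was sequenced on a NextSeq 500 and the Her7 line on a MiSeq, so the protein, the line, the antibody and the sequencer cannot be told apart. With 1 list per line there was no replicate, and no test was run on any difference between the lists or between sets of peaks. Intervals cover counting error only, and neighbouring peaks are not independent.

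Each peak carries a fold enrichment, the authors' ratio of signal at the summit over a local background. The number of fragments at the summit (the pileup) and that background were worked out from the deposited fold enrichment and p-value of each peak. The lowest background of a list is called its floor. It was 0.0330 fragments for Her1 and 0.169 for Her7, which is 5.11 times as high. Total read numbers are not given in the sources used here, so the depth of the libraries is unknown.

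Within the window that chose the sites, the unsigned distance between the summits had a median of 37 bp with an interquartile range of 15.5 to 59.8 bp. The summits fell on the same base at 3 sites, at most 10 bp apart at 39 sites (17.3%) and at most 50 bp apart at 149 sites (65.9%). The Her7 summit lay at the higher coordinate at 116 sites and at the lower at 107, and the median signed distance, Her7 minus Her1, was 1.5 bp within a window that is the same on both sides. Counts fell off beyond the window without a break: 77 Her1 peaks lay over 50 and up to 100 bp from the nearest Her7 summit, 66 lay over 100 and up to 150 bp away, and 33 lay over 150 and up to 200 bp away. All 226 pairs also overlapped as intervals. They made up 45.8% of the 493 Her1 peaks of the chromosomes that overlapped a Her7 peak by at least 1 bp.

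**Figure D1:**
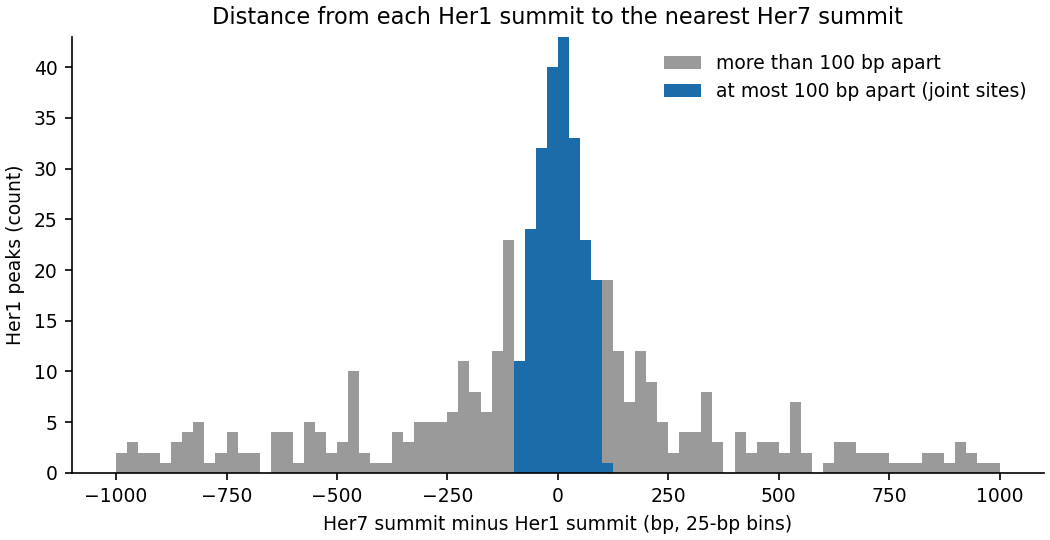
Signed distance in bp (x axis, 25-bp bins) from each Her1 summit of the numbered chromosomes to the nearest Her7 summit, for distances up to 1 kb, with the number of Her1 peaks on the y axis. Blue bars are the 226 joint sites and grey bars the peaks further apart. The counts peak around 0 and decline on both sides.

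The threshold cut through a continuous range of strong and weak peaks. The 3 members nearest to it had summits 98 bp apart on chromosome 4 (Her1 summit at 16643265, fold enrichments 11.3 for Her1 and 18.8 for Her7), and 100 bp apart on chromosome 1 (54012718, 26.7 and 29.9) and on chromosome 2 (31475941, 7.26 and 10.3). The 3 peaks just outside lay 101 bp apart on chromosome 11 (37048309, fold enrichments 39.8 and 21.7) and on chromosome 12 (34718946, 29.5 and 5.76), and 102 bp apart on chromosome 11 (41999421, 358.8 and 6225). The last of these is among the strongest peaks of both lists and missed the joint set by 2 bp.

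Joint sites were found on 24 of the 25 chromosomes. Chromosome 7 had the most, with 20, followed by chromosomes 11 and 21 with 16 each and chromosome 4 with 15. Chromosome 9 had none among its 51 Her1 and 155 Her7 peaks, and a count of 0 of 51 Her1 peaks allows a share of up to 5.88% when 3 counts are taken as the limit, or 6.98% by the exact 95% interval. Per Mb of chromosome, taken up to the last peak of either list, the median over the chromosomes was 0.152 joint sites. Chromosome 11 with 0.352 and chromosome 21 with 0.348 stood highest, and after chromosome 9 the lowest was chromosome 6 with 0.0498. As a share of the Her1 peaks of a chromosome, joint sites ranged up to 28.1% (95% interval 17.0 to 41.5) on chromosome 11, whose interval lay above the 13.0% of all chromosomes, as did that of chromosome 7 (22.0%, 14.0 to 31.9). The exact interval of chromosome 9 ended below it. On the other 22 chromosomes the interval included 13.0%. These intervals treat neighbouring sites as independent, and 25 of them were looked at, so they only describe the counts. With sites linked within 50 kb counted as 1, chromosome 11 had 6 loci and chromosome 7 had 17.

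**Figure D2:**
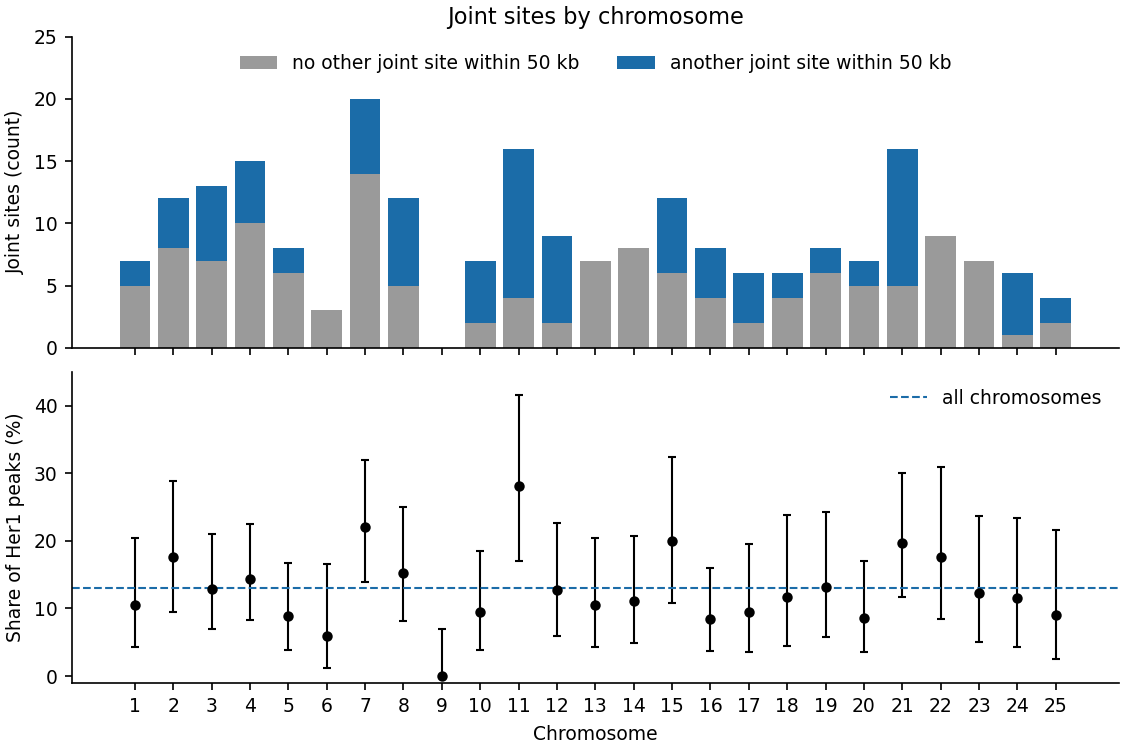
Joint sites on each of the 25 chromosomes (x axis). The upper panel gives their number, with sites that have another joint site within 50 kb in blue, and the lower panel gives them as a percentage of the Her1 peaks of the chromosome, with exact 95% binomial intervals and a dashed line at 13.0%. Chromosomes 11 and 21 owe 12 and 11 of their 16 sites to such neighbours, and chromosome 9 has no joint site.

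Along the chromosomes the joint sites were spread over the whole length. When each span was divided into 5 equal parts from its first base, the parts held 34, 65, 40, 44 and 43 joint sites, against 329, 326, 288, 256 and 314 of the Her1 peaks that were not joint. With sites linked within 50 kb counted as 1, the parts held 32, 40, 30, 35 and 29, so counting each group once took the second part from 65 to 40. Within 1 Mb of either end of the span lay 18 joint sites (7.96%), against 9.98% of the other Her1 peaks and 11.1% of the other Her7 peaks. The extreme cases were joint summits at position 247 of chromosome 2 and at position 685 of chromosome 10 in the Her1 list, with partners at 173 and 633. Chromosome 4 was uneven: 7 of its joint sites lay before 28 Mb and 7 between 28 and 29 Mb. Beyond 29 Mb, on the long arm, there was 1 joint site among 34 Her1 peaks (2.94%, 0.0744 to 15.3) and 261 Her7 peaks (0.383%, 0.00970 to 2.12). The Her1 interval includes the 13.0% of all chromosomes, while the Her7 interval ends below the 4.77% of all chromosomes. The last joint site before 29 Mb lay at 28924497, so these counts depend on where the limit is set.

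Many joint sites had another one close by. The distance to the nearest other joint site had a median of 514243 bp, with 6280.5 and 3209529 bp as its quartiles, so near neighbours and isolated sites were both common. No other joint site lay within 1 kb of any joint site (0 of 226, which allows a share of up to 1.33% with 3 counts as the limit, or 1.62% by the exact 95% interval). Another one lay within 10 kb at 61 sites (27.0%) and within 50 kb at 94 sites (41.6%, 35.1 to 48.3), and widening the limit to 100 kb added only 5 sites. Linking sites within 50 kb gave 166 loci, of which 132 were single sites, 24 were pairs, 4 held 3 sites and 6 held 4 to 7 sites. Around a joint site, peaks of either list were close as well. Another Her1 peak lay within 10 kb of 126 joint sites (55.8%), where this held for 31.2% of all Her1 peaks of the chromosomes, and another Her7 peak lay within 10 kb of 150 partners (66.4%), where it held for 34.7% of all Her7 peaks. Her1 peaks that overlapped a Her7 peak with summits further apart had such a Her1 neighbour in 64.0% of cases and those without overlap in 19.7%, so the joint sites fell between these sets.

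Gaps of about 3 kb were the most common among close neighbouring joint sites. Of the 34 gaps of at most 10 kb between neighbouring joint summits, 13 lay between 2.5 and 3.0 kb, 5 between 3.0 and 3.5 kb and 4 below 2.5 kb. A window of 2.5 to 3.3 kb, set after these counts were seen, took in 18 gaps (52.9%, 35.1 to 70.2). The same window held 41 of 222 such gaps (18.5%, 13.6 to 24.2) between Her1 peaks that were not joint and 121 of 1038 (11.7%, 9.77 to 13.8) between Her7 peaks that were not joint. For the latter the fullest bin was 1.0 to 1.5 kb, with 168 gaps, whereas for the Her1 peaks that were not joint it was also 2.5 to 3.0 kb, with 28. Over all peaks of the chromosomes the window held 75 of 341 such gaps for Her1 (22.0%) and 152 of 1182 for Her7 (12.9%). The window was set on the joint gaps, which favours their share. Gaps between peaks that were not joint pass over any joint site between them. The number of gaps depends on how dense the peaks of a set are, and these shares were not tested against each other.

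**Figure D3:**
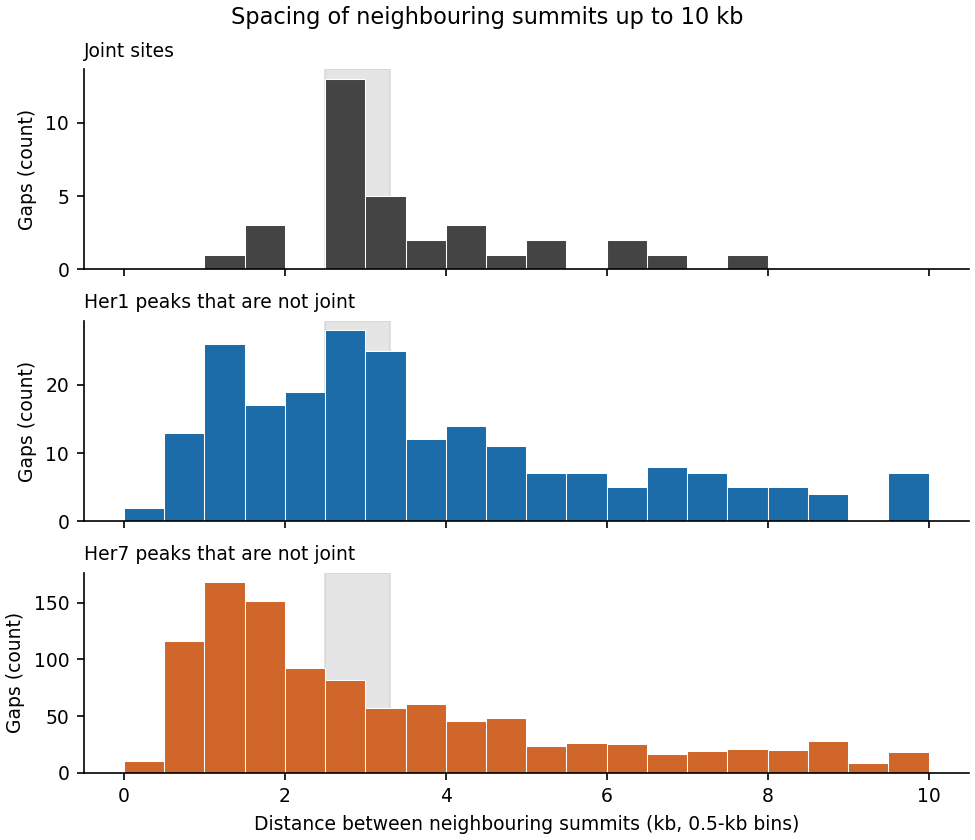
Distance between neighbouring summits (x axis, kb in bins of 0.5 kb) for gaps of up to 10 kb, with the number of gaps on the y axis, for joint sites, for Her1 peaks that were not joint and for Her7 peaks that were not joint. The grey band marks 2.5 to 3.3 kb, where 18 of the 34 gaps between joint sites lie.

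The 18 pairs at this spacing lay on 15 chromosomes, and 13 of them stood alone, with no further joint site within 50 kb. In 17 pairs no other Her1 peak lay between the members, and in 15 no other Her7 peak did. The gaps ran from 2509 to 3236 bp with a median of 2882 bp by Her1 summits, and the Her7 summits gave a median of 2914.5 bp. The Her7 widths of the members differed by at most 50 bp in 10 of the 18 pairs, and the Her1 widths did in 5. Their Her7 widths differed by a median of 31 bp and their Her1 widths by 164.5 bp, against 574.5 and 459 bp over the 42 other gaps of at most 50 kb between neighbouring joint sites. The larger fold enrichment exceeded the smaller by a median factor of 1.38 for Her1 and 1.56 for Her7, against 1.60 and 1.70 over the other gaps. These differences were not tested. Those in width are in bp and were not scaled to the widths of the peaks. The other gaps include gaps inside the groups of 4 or more joint sites, where the median Her7 width reached 2192 bp on chromosome 24. Wide peaks leave more room for a difference in bp, so the widths of the 2 sets of gaps are not compared on equal terms. On chromosome 20 the pair at 24822689 and 24825328 had Her1 widths of 381 bp and Her7 widths of 326 bp at both members, with Her1 fold enrichments of 21.3 and 24.2 and Her7 fold enrichments of 38.0 and 28.4. On chromosome 1 the pair at 17846044 and 17849250 had Her1 widths of 535 and 530 bp and Her7 widths of 375 bp at both members. At the pair on chromosome 7 at 63996010 and 63999197 the Her7 widths were 553 and 554 bp, while the Her1 widths were 548 and 315 bp. The least alike pair, on chromosome 15 at 20471065 and 20474172, had Her1 widths of 4352 and 446 bp and Her1 fold enrichments of 416 and 60.0. How reads that map to several places were treated is not given in the sources used here, and its part in this spacing was not tested.

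The 6 groups of 4 or more joint sites held 34 sites and were of 2 kinds by how the fold enrichments compared. In the groups on chromosome 15 from 20471065 to 20528468 (6 sites in 57.4 kb), on chromosome 11 from 41969873 to 42011779 (5 sites in 41.9 kb) and on chromosome 21 from 37970698 to 37995015 (4 sites in 24.3 kb), the Her7 fold enrichment was the higher at 14 of 15 sites. In the groups on chromosome 11 from 15110386 to 15141469 (7 sites in 31.1 kb), on chromosome 12 from 14327285 to 14439553 (7 sites in 112 kb) and on chromosome 24 from 12369284 to 12456585 (5 sites in 87.3 kb), the fold enrichments of the 2 proteins were nearer to each other. The median ratio of Her7 to Her1 fold enrichment was 11.0, 5.40 and 4.83 in the first 3 groups and 0.597, 1.51 and 1.53 in the other 3. With each pileup divided by its floor, the median ratios were 2.543, 4.528 and 1.401 in the first 3 groups. They were 0.567, 0.607 and 0.866 in the other 3. The groups on chromosomes 12 and 24 thus lay above 1 by fold enrichment and below 1 by pileup over floor.

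On chromosome 15 the Her1 fold enrichments, in order of position, were 416, 60.0, 94.9, 27.1, 38.7 and 15.5, and those of Her7 were 443, 72.0, 1135, 2534.5, 406 and 179. The first 2 sites, which form one of the pairs at 3 kb spacing, had nearly equal fold enrichments in the lists. Their pileups were 579 and 61 for Her1 and 5900 and 121 for Her7. At the other 4 sites the fold enrichment was 10.5 to 93.5 times as high for Her7. In the second group of chromosome 11 the Her1 fold enrichments were 61.0, 38.3, 13.1, 32.0 and 40.7, and those of Her7 were 136, 949.8, 40.1, 173 and 324. All 5 were higher for Her7, and the strong peak pair that missed the threshold by 2 bp lies inside this group. On chromosome 21 the Her1 fold enrichments were 63.9, 65.8, 105.5 and 31.1, and those of Her7 were 11.2, 369.9, 427 and 608. Only the first site was higher for Her1, and its Her7 background was 105 times the floor, against 5.21 times or less at the other 3. A smaller group of 3 sites on chromosome 8, from 46927316 to 46937605, had Her1 fold enrichments of 78.4, 182 and 878 and Her7 fold enrichments of 162, 1028 and 4449.7, and both rose in the same order.

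In the first group of chromosome 11 the Her1 fold enrichments were 18.8, 23.5, 17.6, 24.0, 32.2, 25.2 and 31.5, and those of Her7 were 15.3, 17.8, 18.2, 10.3, 19.3, 8.75 and 10.5. They stayed within narrow ranges, and Her1 was the higher at 6 of 7 sites. The background there was raised in both lists, with medians of 71.5 times the Her1 floor and 88.7 times the Her7 floor. On chromosome 12 the Her1 fold enrichments were 10.9, 9.33, 17.55, 7.94, 9.14, 5.85 and 5.01, and those of Her7 were 9.59, 8.72, 7.11, 13.4, 13.8, 11.7 and 20.8. These were weak sites, resting on 5 to 20 Her1 fragments and 14 to 39 Her7 fragments, in a stretch so dense in peaks that it held 26 of the 71 Her1 peaks of the chromosome and 40 Her7 peaks. The group on chromosome 24 likewise had 12 Her1 and 22 Her7 peaks between its first and last joint summit, of which 5 coincided.

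**Figure D4:**
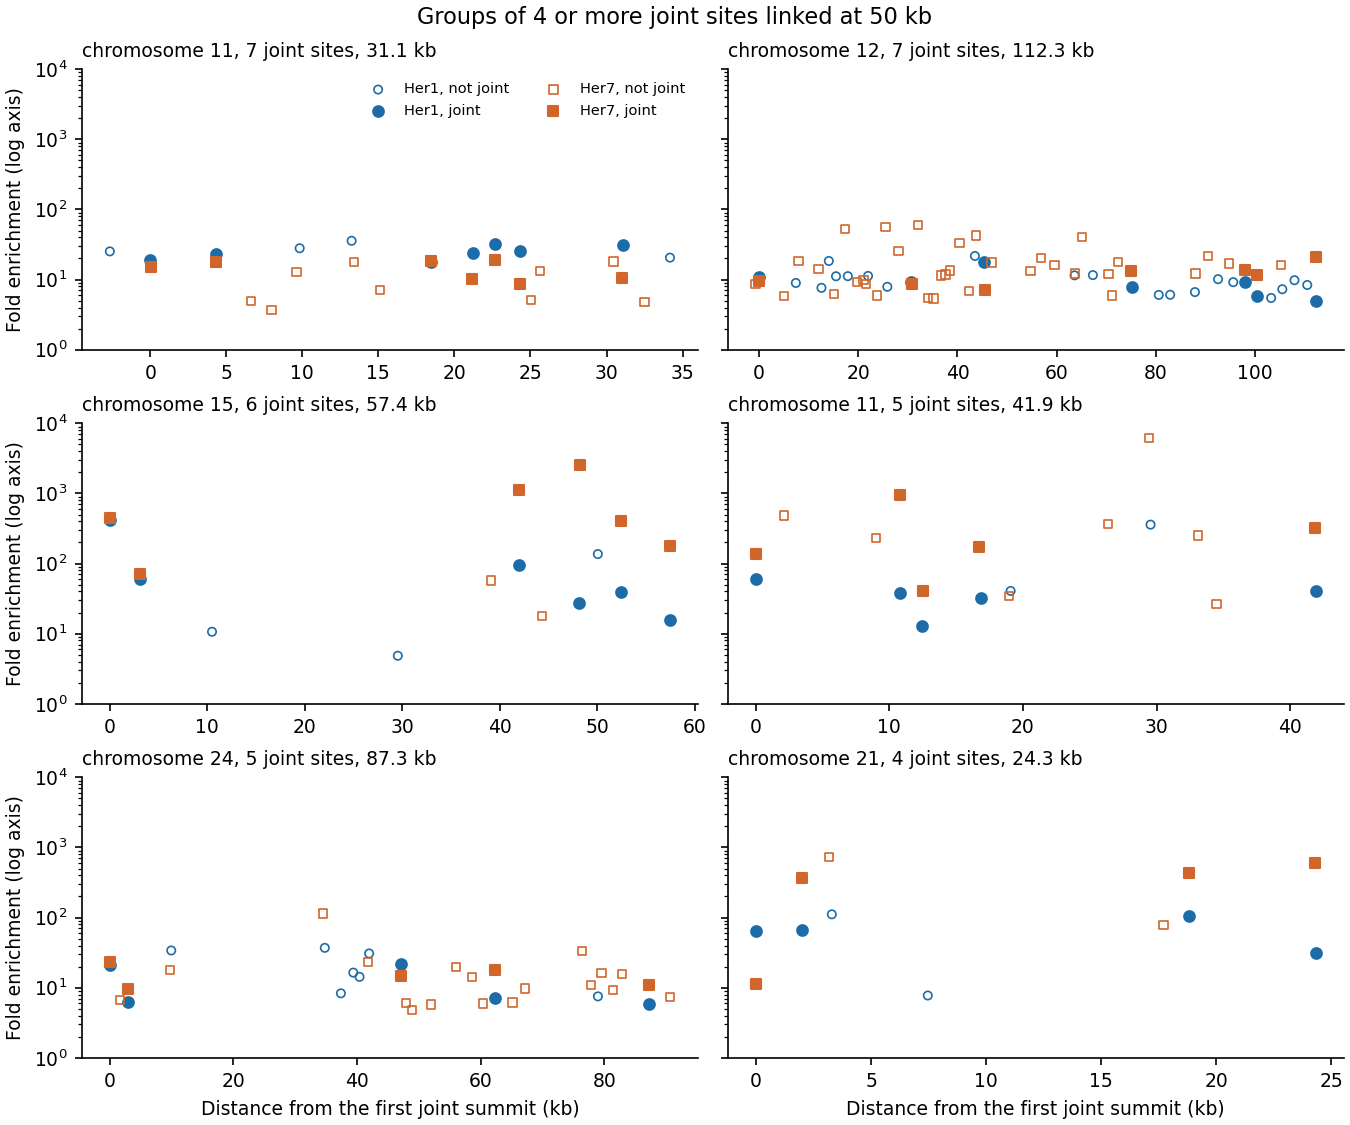
Fold enrichment (y axis, log scale) of Her1 peaks (blue circles) and Her7 peaks (orange squares) against the distance in kb from the first joint summit, for the 6 groups of 4 or more joint sites. Filled symbols are joint sites and open symbols other peaks. Orange stands mostly above blue in the groups of 6, 5 and 4 sites on chromosomes 15, 11 and 21, and the symbols mix in the groups on chromosomes 12 and 24 and in the group of 7 on chromosome 11.

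Joint peaks had larger median widths than most of the remaining peaks of their lists. The exception was Her1 peaks that overlapped a Her7 peak with summits further apart. A wide peak more easily overlaps one whose summit is over 100 bp away, so the width of that class is in part built in. Joint Her1 peaks had a median width of 479 bp (quartiles 342 and 732), those without a Her7 overlap 370 bp (305 and 466) and the overlapping ones with summits further apart 578 bp (408 and 884). Joint Her7 peaks had a median width of 541 bp (374 and 1036), against 398 bp (301 and 549) for the other Her7 peaks of the chromosomes. Widths above 1 kb occurred at 38 joint sites in the Her1 list (16.8%, against 6.73% of all Her1 peaks of the chromosomes) and at 57 in the Her7 list (25.2%, against 6.97% of all Her7 peaks), and 23 sites passed 1 kb in both. The Her7 peak was the wider at 127 sites and the Her1 peak at 98. Across the 226 sites, widths in the lists had a Spearman's rho of 0.44 (Pearson's r of the log2 widths 0.55), as a description over sites that share their libraries.

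The intervals shared a median of 62.1% of their combined length (interquartile range 42.7 to 77.5). The Her1 interval lay wholly inside the Her7 interval at 85 sites and the reverse held at 51, which includes 1 site with identical intervals. At 155 sites (68.6%) the overlap reached 50% of both. The lower edges of the intervals were at most 10 bp apart at 25 sites, the upper edges at 40 sites and both at 7. The joint peaks covered 161 kb for Her1 and 203 kb for Her7, of which 123 kb was common. The widest joint Her1 peak spanned 9309 bp on chromosome 5, from 68791966 to 68801274, with a Her7 partner of 3368 bp, and the narrowest spanned 259 bp on chromosome 7, from 70947843 to 70948101. The widest Her7 partner spanned 7986 bp on chromosome 5, from 68802876 to 68810861, and the narrowest, of 233 bp, lay on chromosome 5 from 72377103 to 72377335 and on chromosome 19 from 20200603 to 20200835. Among the peaks of the chromosomes that were not joint, the lowest width was also 233 bp for Her7 and was 258 bp for Her1. The narrowest joint peaks thus lay at or near the lower end of their lists, which differed between the lists.

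Joint sites were among the stronger peaks of both lists, but not all were strong. The Her1 fold enrichment had a median of 12.9 (interquartile range 7.21 to 24.2), against 7.74 (5.81 to 11.5) for Her1 peaks without overlap and 11.3 (6.72 to 19.6) for overlapping ones with summits further apart. The Her7 fold enrichment had a median of 18.8 (8.89 to 55.1), against 10.8 (6.11 to 25.7) for the other Her7 peaks of the chromosomes. Ranked by −log10 q within the whole list, the median joint site stood at percentile 74.0 for Her1 and 78.2 for Her7. Among the strongest 10% of the Her1 peaks of the chromosomes 55 of 174 were joint (31.6%, 24.8 to 39.1), against 14 of 174 among the weakest 10% (8.05%, 4.47 to 13.1). For Her7, 91 of the strongest 474 peaks were joint (19.2%, 15.7 to 23.0), against 1.05% (0.343 to 2.44) among the weakest 10%. In between, the Her7 share rose to 5.29% (3.45 to 7.70) in the eighth bin of 10 and was 4.02% in the ninth, and the Her1 share was 15.5% and 23.6% in those bins.

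The ranks of a site in the lists matched only in part. In the top 10% of both whole lists stood 42 joint sites, in that of the Her7 list alone 49 and in that of the Her1 list alone 13, while 22 sites were in the lower 50% of both. The 42 had a median summit distance of 20.5 bp, and 25 of them had another joint site within 50 kb. At the weak end 39 joint sites (17.3%) rested on at most 10 fragments in the Her1 list, and 5 rested on at most 10 in the Her7 list. For Her1 this held for 15.4% of the overlapping peaks with summits further apart and 57.0% of those without overlap. For Her7 the lower quartile of the pileup was 45 fragments at joint sites and 16 at the other peaks of the chromosomes. A limit of 10 fragments is not alike in the lists, because the Her7 floor was 5.11 times as high.

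The Her7 fold enrichment exceeded that of Her1 at 157 of 226 sites (69.5%, 63.0 to 75.4), with a median ratio of 1.55 (interquartile range 0.891 to 3.19). For the 267 overlapping pairs with summits further apart the median ratio was also above 1, at 1.27 (0.750 to 2.22). Her7 was at least 2 times as high at 90 joint sites (39.8%, against 33.9% of the 493 overlapping pairs), and Her1 was at least 2 times as high at 25 (11.1%, against 11.2%). By pileup the Her7 peak was the higher at 213 sites, the Her1 peak at 11, and 2 were equal. The ratio of Her7 to Her1 pileup at a site had a median of 5.23, close to the ratio of the floors of 5.11, so that with each pileup divided by its floor the median ratio was 1.02 (0.504 to 2.06) and Her7 was the higher at 116 sites (51.3%, 44.6 to 58.0). The excess of Her7 at the median site therefore depended on the measure, and the floors can be set against each other only where the peak caller was given an equal genome size for both, which the sources used here do not give.

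The signals of the proteins rose and fell together across the joint sites. Spearman's rho was 0.60 for fold enrichment (Pearson's r of log2 values 0.68), 0.49 for −log10 q (0.60) and 0.69 for pileup (0.72), each over 226 sites. Their backgrounds did so too, with a rho of 0.63 (0.72), and sites share libraries and, in the dense groups, loci. For the 267 overlapping pairs with summits further apart the rho was 0.55 for fold enrichment, 0.65 for pileup and 0.73 for the background.

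**Figure D5:**
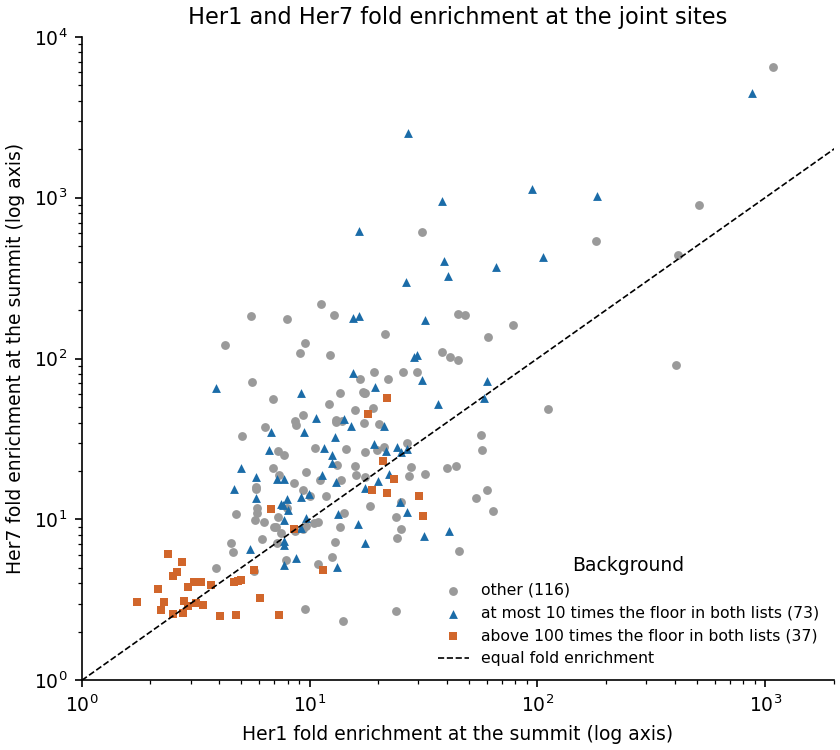
Fold enrichment at the summit of each of the 226 joint sites in the Her1 list (x axis, log scale) and in the Her7 list (y axis, log scale), with a dashed line at equality. Blue triangles are the 73 sites whose background reached no more than 10 times the floor in either list, orange squares the 37 sites above 100 times in both, and grey circles the other 116. The orange sites lie mostly at low fold enrichments near the line, and the sites with the highest Her7 values lie above it.

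Many joint sites lay where the background was raised. It exceeded 10 times the floor at 120 sites in the Her1 list (53.1%, against 36.0% of all Her1 peaks of the chromosomes) and at 125 in the Her7 list (55.3%, against 40.3%). For Her1 this share was higher, 67.4%, among overlapping peaks with summits further apart, and 26.2% among peaks without overlap. The background exceeded 100 times the floor at 44 sites in the Her1 list (19.5%), against 2.65% of the Her1 peaks without overlap and 19.9% of the overlapping ones with summits further apart. Of all Her1 peaks with such a background 33.8% were joint (25.8 to 42.7), and 9.52% (7.86 to 11.4) at up to 10 times the floor. Among Her1 peaks that overlapped a Her7 peak, however, the share with summits at most 100 bp apart was 54.9% (47.6 to 62.1) at up to 10 times the floor, 37.4% (30.8 to 44.5) from 10 to 100 times and 45.4% (35.2 to 55.8) above. The part of the background in the coincidence of summits was not tested.

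The lists placed 149 sites in the same of 3 background classes (up to 10, 10 to 100 and above 100 times the floor), and these classes differed in their values. The 73 sites at up to 10 times in both lists had median fold enrichments of 15.5 for Her1 and 26.6 for Her7, on 15 and 41 fragments, and widths of 446 and 410 bp. They were spread over 21 chromosomes, with 10 on chromosome 7, and 38 of them had another joint site within 50 kb. The 37 sites above 100 times in both had median fold enrichments of 4.03 and 4.11, on 54 and 548 fragments, and widths of 528 and 1167 bp. Those sites had more fragments but far lower enrichment, with fold enrichments of up to 31.5 for Her1 and up to 56.5 for Her7. A high background lowers the fold enrichment by its definition, so this contrast is in part built into the classes.

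The ratio of fold enrichments differed between the background classes. Each fold enrichment is divided by its background plus 1, so near the floor this ratio depends mostly on the pileups. The classes were set by these same backgrounds, so differences in the ratio between them are in part built in and are descriptions only. The median ratio of fold enrichments was 1.79 at sites with up to 10 times the floor in both lists and 1.02 above 100 times in both. It was 3.56 at the 28 sites with 10 to 100 times in the Her1 list and up to 10 times in the Her7 list, and 0.774 at the 9 sites with 10 to 100 times in the Her1 list and over 100 times in the Her7 list. The ratio of pileups over their floors ran the other way in these classes, with medians of 0.652, 1.82, 0.574 and 1.76. In 3 of these 4 classes the medians of both ratios lay on opposite sides of 1, and in the class above 100 times in both lists they lay on the same side. They also lay on the same side at the 28 sites with up to 10 times in the Her1 list and 10 to 100 times in the Her7 list (1.73 and 1.41) and at the 39 sites with 10 to 100 times in both (1.49 and 1.10). In the smallest classes they lay on opposite sides of 1. At the 5 sites with up to 10 times in the Her1 list and above 100 times in the Her7 list they were 0.593 and 2.63. At the 7 sites with above 100 times in the Her1 list and 10 to 100 times in the Her7 list they were 4.30 and 0.744.

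The 10 sites that stood highest in both lists by −log10 q lay on 7 chromosomes, and their summits were 0 to 45 bp apart. At the strongest, on chromosome 5 with both summits at 68805441, and at its neighbour at 68797487, the Her1 pileup was the higher, with 40207 against 37955 fragments and 7127 against 6981. These were 2 of only 11 sites of this kind. Over their floors the Her7 pileups were 0.185 and 0.192 times those of Her1. The Her7 fold enrichment was the higher at both (6484 against 1081, and 900.2 against 509.9). Whether these or other joint sites lie on sequence that the transgenes of the lines also carry is not known here. The part of reads from the transgenes in any peak was not tested. At 46937605 on chromosome 8 the Her1 pileup was 906 and that of Her7 6738, at 46931149 it was 187 and 1502, and at 20471065 on chromosome 15 it was 579 and 5900. The Her7 pileups at these 3 sites were 1.46 to 1.99 times those of Her1 over the floors, so they departed from the chromosome 5 sites in the direction of the pileup.

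Of the remaining 5, the site on chromosome 23 at 21448324 was the only one of the 10 with the Her1 fold enrichment far above that of Her7, at 408 against 91.4, and its Her7 background was 51.7 times the floor. On chromosome 21 at 20711638 the fold enrichments were 181 for Her1 and 536 for Her7. The sites on chromosome 24 at 12369284 and 12416440 and on chromosome 11 at 15114721 had fold enrichments between 14.6 and 23.5 in both lists, on 433 to 910 Her1 fragments and 1324 to 2995 Her7 fragments. Their backgrounds were 503 to 1287 times the floor, so they ranked high through their number of fragments. The intervals at 12416440 began at the same base, 12415939, and ended 3 bp apart, at 12416812 for Her1 and 12416809 for Her7.

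The most unequal sites were led by 20519201 on chromosome 15, with 27 Her1 fragments and 2961 Her7 fragments at a background near the floor in both, and a ratio of fold enrichments of 93.5. At 32784177 on chromosome 7 there were 16 and 762 fragments, also near the floor, and a ratio of 37.7, with summits 1 bp apart. At 20698927 on chromosome 21 the ratio was 33.3, on 22 and 249 fragments, with a Her1 background of 95.3 times the floor. With each pileup divided by its floor, the ratios at these sites were 21.5, 9.32 and 2.21. The Her1 fold enrichment was highest relative to Her7 at 7515128 on chromosome 16, with 24.1 against 2.71, at 6588078 on chromosome 23, with 45.5 against 6.33, and at 9765244 on chromosome 15, with 14.0 against 2.33. At all 3 the Her7 list had more fragments (76, 80 and 41, against 26, 46 and 24 for Her1), and its background was 163, 70.0 and 101 times the floor. With each pileup divided by its floor, however, Her1 was the higher at all 3, with Her7 to Her1 ratios of 0.572, 0.340 and 0.334. In all, 18 sites (7.96%) had a Her7 fold enrichment at least 10 times that of Her1, and 4 of these were the last 4 sites of the chromosome 15 group.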

How the data were processed

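Peaks were called by the authors with MACS2 (2.2.7) after FastQC 0.11.9, Bowtie2 2.5.1 and SAMtools 1.17, with bedtools, per the submitters' processing notes, at q 0.01 per the file names. The genome build, control library, duplicate treatment and pooling are not given in the sources used here. Each deposited peak row holds a position, a fold enrichment (a ratio), −log10 p and q values and an integer score, which repeats −log10 q on another scale and was not used. Positions are printed from 1. Groups follow the sample titles.

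Summits were paired by script (Python 3.11.15, pandas 2.3.3, SciPy 1.17.1). Whole-number pileups were solved from fold and p under MACS2's formulas (pseudocount 1, Poisson tail). The deposited −log10 p was met to a relative 3e-05 in all 2061 and 5591 rows. For 5 joint sites a second whole number also met it, and the nearer was kept. On 600 simulated peaks 100% of pileups were returned. These peaks were made with the same formulas and did not reach the highest fold enrichments of the lists. They check the solving step only.

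The members, lists and settings were chosen with earlier results of these data known. Sites named are the 10 joint sites with the highest lower percentile by −log10 q, the 3 highest and 3 lowest ratios, the largest groups, the 3 on each side of the threshold, and the widest and narrowest. The remaining groups of 4 or more, the chromosome 8 group, the pairs and the positions nearest to an end were chosen after their values were seen. No genome or annotation with the contigs of the lists was at hand (0 of the 49597 genes of the reference table, GRCz12tu, lay on such contigs), so no gene, sequence or motif is given.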

Additional observations from a re-analysis of the deposited data

Results flagged for a closer look

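Peaks outside the numbered chromosomes are not used in the comparisons or otherwise described. Among them, 52 of 322 Her1 peaks (16.1%, 95% interval 12.3 to 20.6) also had a Her7 summit at most 100 bp away. On the numbered chromosomes this held for 226 of 1739 Her1 peaks (13.0%), a share inside that interval. Of the 52 peaks, 38 of 248 lay on alternate contigs (15.3%), 13 of 68 on unplaced scaffolds (19.1%) and 1 of 6 on the mitochondrial genome. On the alternate contigs, which are second versions of parts of chromosomes and may repeat sites counted above, the median fold enrichments were 13.5 for Her1 and 43.5 for Her7.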

How the results depend on the processing

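Alternatives were run for each of the 8 results where they applied, not all for every result, and gave 42 values, of which 28 stayed inside the 95% interval of the value in the text (for the count of sites, within a factor of 1.5), 14 moved beyond it and 0 reversed. The number of joint sites, 226, and their share of the Her1 peaks, 13.0%, became 149 and 8.57% with summits at most 50 bp apart, 73 and 6.56% with backgrounds no higher than 10 times the floor, and the share 18.7% at most 200 bp apart (325 sites). The values at 50 and 200 bp follow from stricter or wider limits. For the background limit, the 73 sites met it in both lists. The 1113 Her1 peaks they were divided by had to meet it in the Her1 list only. With the limit on the Her1 list alone, 106 of the 1113 were joint (9.52%). The cause of the remaining difference from 13.0% was not tested. The background limit also moved the median Her7 width from 541 to 410 bp. The median Her1 width went from 479 to 446 bp. The list with the larger median width thus changed from Her7 to Her1, an order that is not itself one of the 8 results. Taking any overlap in place of the summit limit gave a median summit distance of 111 bp in place of 37 bp. Sites with a joint neighbour made up 27.0% with a link of 10 kb in place of 41.6%. The median Her7 over Her1 ratio of 1.55 became 5.23 by pileup and 1.02 by pileup over floor, both chosen after seeing the data, and as a difference of percentile ranks, a different unit counted as moved, Her7 stood 5.04 points higher by −log10 q and 3.68 by pileup. The rho of 0.60 was 0.49 by −log10 q and 0.69 by pileup. No paired analysis was possible because a single list came with each line, so leaving out a replicate could not be tried either. The motif setting was not run. The depth of the libraries is unknown, and 39 joint sites rest on at most 10 Her1 fragments.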
